A study of Macaca fascicularis with 3 samples.

Results

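The histone cluster genes described here are the genes for the linker histones H1-1 to H1-6 and the core histone genes whose symbols begin with H2AC, H2BC, H3C or H4C, measured as polyadenylated RNA in cynomolgus monkey (Macaca fascicularis) germ cells. They were chosen by these symbols and not by their values. The deposited feature lists gave 0 of them under such a symbol, because 9282 of the 26017 features carried names made of LOC and a gene number. Through that number and the RefSeq gene table of assembly T2T-MFA8v1.1, 669 of those features received a symbol, and 20 of the 26017 features were then histone cluster genes. These were the 6 H1 genes, H2AC1, H2AC6, H2AC12, H2AC20, H2AC21, H2AC25, H2BC1, H2BC12, H2BC17, H2BC21, H2BC26, H3C2, H4C9 and H4C16. The table lists 26 such symbols, and the other 6 (H2BC4, H3C1, H4C1, H4C4, H4C13 and H4C15) had no matching feature and were not analysed here.

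As background, core histones form the particle around which DNA is wound, and H1 linker histones bind the DNA where it enters and leaves that particle. Most genes of the histone clusters are made in S phase, when new DNA has to be packaged, and their mRNAs normally end in a stem-loop rather than in a polyA tail. A polyA-primed 3′ assay therefore reads only their polyadenylated transcripts (or RNA primed at internal A stretches), and replication-independent histone genes, whose mRNAs carry polyA tails, offer a comparison. H1-6, H2AC1 and H2BC1 are known from mouse and human as histones made mainly in testis germ cells, and H2AC6, H2BC12 and H2BC21 are known in human cells for polyadenylated forms.

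Single-cell RNA was counted in 3 libraries of germ cells made from embryonic stem cells of 15XRi-AGVT#7, 1 line of wildtype genotype that carries the reporters TFAP2C-EGFP (early germ cells, AG) and DDX4-tdTomato (later germ cells, VT). The cells were grown in xenogeneic reconstituted ovaries, which are aggregates with mouse ovarian somatic cells taken at E13.5, E14.5 or E15.5, and the libraries are named here by that mouse stage, with 1 library per stage. The labels call the cells early oogonia. Live germ cells positive for 1 or both reporters were sorted and mixed with sorted reporter-negative mouse cells before capture, so every library holds both species. Values are CPM, the unique molecular counts (UMIs) of a gene per 1000000 UMIs of the cells summed, without scaling to gene length. Where 3 values stand in a row, they belong to E13.5, then E14.5, then E15.5.

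Germ cells were taken as barcodes with 2 to 20% of their UMIs in the 13 mitochondrially encoded genes and at least 10000 UMIs, which gave 537, 536 and 1113 cells, with medians of 55620, 43003 and 48553 UMIs. DAZL, a germ cell RNA-binding protein, was detected in 536, 522 and 1101 of them. The summed level of 10 mouse ovarian markers was 197 to 233 CPM in germ cells and 2458.5 to 3636.5 CPM in mouse barcodes (under 2% mitochondrial UMIs and at least 1000 UMIs), and WNT4 and AMHR2 lay at 3.90 to 11.9 CPM in germ cells, against 136 to 658 CPM in mouse barcodes. KRT19 was the exception, at 107 to 157 CPM in germ cells and 48.3 to 217 CPM in mouse barcodes. PTPRC, a blood cell gene, was at 0.0638 to 0.835 CPM in germ cells. The libraries shared 0 germ cell barcodes. The mitochondrial share of germ cell UMIs was 6.90%, 7.00% and 9.04%.

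Together the 20 genes took 1868.8, 2019.0 and 1465.3 CPM in the germ cells. Exact Poisson 95% intervals, which cover counting error only, ran from 1853.7 to 1884.0, from 2001.2 to 2036.9 and from 1455.4 to 1475.2 CPM and did not overlap. The 6 H1 genes held 65.1%, 67.4% and 61.1% of these UMIs, the 6 H2A genes 24.9%, 24.7% and 29.7%, and the 5 H2B genes 8.13%, 6.13% and 8.59%. The single H3 gene held 1.60%, 1.56% and 0.482%, and the 2 H4 genes held at most 0.263%. Linker histone RNA was thus the larger share of what was counted for these 20 genes in each library. All 6 H1 genes had a feature, while the 6 listed symbols without one are all core histone genes. The shares therefore depend on which genes could be found and are not shares of all histone cluster RNA. The replication-independent histone genes found among the features, 15 of 18 listed, summed to 3103.4, 3239.7 and 3252.7 CPM.

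Of the 20 genes, 14 reached 20 CPM in at least 1 library. H1-3 was the most abundant, at 463, 561 and 448 CPM, and H1-4 had 365, 400 and 172 CPM. H2AC20, a core H2A gene, had 206, 201 and 216 CPM, and the linker histone H1-2 had 191, 185 and 141 CPM. H1-4 came next after H1-3 in E13.5 and E14.5 and lay below H2AC20 in E15.5. These 4 genes stood above all the remaining members in every library.

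H2AC25, a core H2A gene that stands apart from the main clusters, had 73.2, 125 and 105 CPM, and H2BC1, the testis H2B gene, had 107, 86.2 and 78.3 CPM. H2AC12 had 111, 94.6 and 40.9 CPM, H1-1 82.9, 93.5 and 68.2 CPM, and H1-5 85.7, 90.0 and 50.8 CPM. The order of these 5 genes differed between libraries, so no fixed rank separates them.

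H2AC6 had 48.0, 53.3 and 63.3 CPM in the same order of libraries, and H2BC12 had 38.4, 31.4 and 38.0 CPM. H1-6, the testis linker histone, had 27.9, 30.6 and 14.2 CPM, H3C2, the only H3 gene among the members, had 29.9, 31.5 and 7.06 CPM, and H2AC1, the testis H2A gene, had 25.8, 21.6 and 9.65 CPM. The low members H2BC21, H4C9, H2AC21 and H4C16 ranged from 0.522 CPM (H4C16, E15.5) to 8.94 CPM (H2BC21, E15.5), while H2BC26 and H2BC17 stayed under 2 CPM in every library.

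In the gene table, H2AC20 overlaps H2AC21, H2BC12 overlaps H4C9, and H2AC1 and H2BC1 both overlap SLC17A1. H1-4, H1-5 and H4C16 also overlap another listed gene. The counting of reads with respect to strand is not given in the sources used here, and coding sequences of histone genes are nearly identical between copies, so the division of UMIs among these genes is uncertain. H2AC1 with H2BC1, H2AC12 with H2BC12, H2AC20 with H2BC21, and H2AC25 with H2BC26 are neighbours in that table.

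Mouse barcodes, counted against monkey features, summed to 1178.2, 1439.0 and 803 CPM over the 20 genes. H2AC25 alone made up 539, 811 and 437 CPM of this, against the 73.2, 125 and 105 CPM of germ cells, and H4C9 had 128, 71.0 and 25.1 CPM in mouse barcodes. H1-3 stood the other way, at 463, 561 and 448 CPM in germ cells and 10.2, 10.3 and 27.3 CPM in mouse barcodes. H1-4 was present in mouse barcodes at 248, 223 and 116 CPM and H2AC20 at 122, 182 and 120 CPM. Excluding germ cells with more than 500 CPM of mouse markers (47, 72 and 87 cells) left 17 genes higher in the comparison by MKI67 given next. KRT19 made up most of the marker sum in germ cells, so this limit does not select on mouse RNA alone and cannot settle its part.

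**Figure D1:**
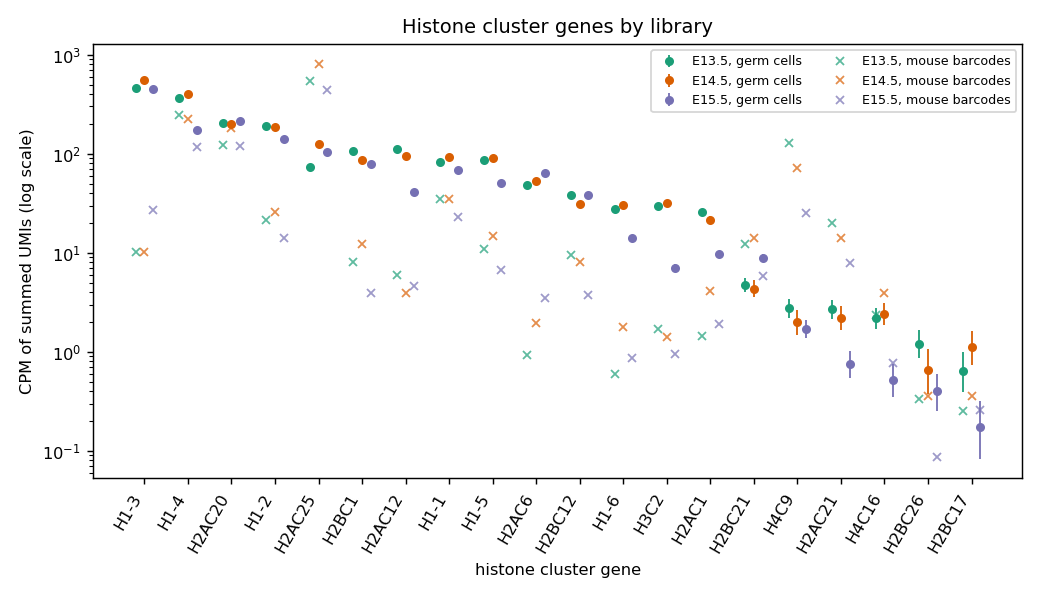
CPM of each histone cluster gene (log scale) in the summed germ cells (circles, with exact Poisson 95% intervals) and in mouse barcodes (crosses), colored by library, in order of mean germ cell level. H1-3 leads in germ cells at 448 to 561 CPM, and H2AC25, H4C9 and H2AC21 lie higher in mouse barcodes in all 3 libraries with intervals apart (H4C16 also lies higher, at 0.775 to 3.91 CPM in mouse barcodes and 0.522 to 2.42 CPM in germ cells).

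Cycling germ cells had more of most histone cluster transcripts. Cells with at least 100 CPM and 2 UMIs of MKI67, a nuclear protein of dividing cells (254, 230 and 452 cells), were set against cells under 20 CPM (161, 169 and 340 cells), with UMIs summed per library and state. The 20 genes together had 2438.6, 2790.5 and 1981.3 CPM in MKI67-high cells, against 1202.5, 1216.3 and 951 CPM in MKI67-low cells. All 20 genes were tested, and 17 were higher in MKI67-high cells by edgeR's quasi-likelihood test, blocked by library and adjusted by Benjamini-Hochberg over all genes (threshold 0.05), where 19.9% of the 16239 genes tested were higher. The number lower was 0, where 18.4% of all genes were lower, and it was also 0 at an unadjusted p under 0.05. DESeq2 called 14 higher and 0 lower. Without E13.5, or without cells over 100000 UMIs, 1 gene was lower. The median log2 difference was 1.15 over the 20 genes and -0.03 over all genes. H2AC25, H2BC21 and H2BC26 did not pass. The 17 include H2BC17 and H2AC21, whose MKI67-low sums held 0, 1 and 0 UMIs and 5, 1 and 7 UMIs. Both passed the filter on low counts only through their MKI67-high sums, so their calls add no support.

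H1-5 showed the widest separation among the well-measured genes, with 143, 163 and 95.6 CPM in MKI67-high cells, against 14.3, 14.1 and 9.02 CPM in MKI67-low cells. The groups did not overlap, and the log2 difference was 3.45 ± 0.07 (SE, edgeR adjusted p = 8.33e-13). H3C2 had 47.7, 53.3 and 11.2 CPM in MKI67-high cells, against 7.28, 9.69 and 3.07 CPM in MKI67-low cells, a log2 difference of 2.42 ± 0.13 (adjusted p = 9.5e-09). Its E15.5 value in MKI67-high cells lay only just above the E14.5 value in MKI67-low cells.

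H2AC12 had 163, 137 and 62.3 CPM in MKI67-high cells and 47.9, 41.8 and 19.1 CPM in MKI67-low cells (log2 difference 1.77 ± 0.06, adjusted p = 8.45e-11). H1-3 had 658, 854 and 680 CPM in MKI67-high cells and 207, 253 and 214 CPM in MKI67-low cells (1.73 ± 0.05, adjusted p = 3.08e-11). For both genes every MKI67-high sum lay above every MKI67-low sum. Of all members H1-3 had the largest difference in CPM in each library.

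The remaining linker histones rose less. H1-1 had 112, 136 and 99.6 CPM in MKI67-high cells and 56.7, 42.2 and 37.2 CPM in MKI67-low cells, a log2 difference of 1.39 ± 0.09. H1-4 had 484, 571 and 240 CPM in MKI67-high cells and 230, 213 and 103 CPM in MKI67-low cells (1.27 ± 0.06), and H1-2 differed by 0.80 ± 0.05, at 233, 241 and 179 CPM in MKI67-high cells, against 130 CPM (E14.5) and 107 CPM (E15.5) in MKI67-low cells, and its groups did not overlap. H1-6 differed by 1.26 ± 0.12, at 36.1, 45.6 and 19.7 CPM in MKI67-high cells and 20.3, 14 and 8.42 CPM in MKI67-low cells. Its groups overlapped, with E15.5 low in both states, and the direction was the same in all 3 libraries.

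Among the other core histone genes that reached 20 CPM in a library, the differences were smaller than those of H2AC12 and H3C2 or did not pass. H2AC1 differed by 1.05 ± 0.10, H2AC6 by 0.64 ± 0.10, H2BC1 by 0.51 ± 0.08, H2BC12 by 0.38 ± 0.09 and H2AC20 by 0.37 ± 0.07 on the log2 scale, each higher in MKI67-high cells in 3 of 3 libraries. H2AC20 had 215, 241 and 245 CPM in MKI67-high cells, against 204, 164 and 189 CPM in MKI67-low cells. H2AC25 did not pass and was lower in MKI67-high cells in 3 of 3 libraries, with 70.5, 111 and 103 CPM in MKI67-high cells and 75.2, 156 and 105 CPM in MKI67-low cells (-0.17 ± 0.09, adjusted p = 0.157). Of the low members, H2AC21 had 4.26, 4.17 and 1.17 CPM in MKI67-high cells, against 0.638, 0.159 and 0.468 CPM in MKI67-low cells, a log2 difference of 2.57 ± 0.42 that rests on 1 to 7 UMIs per MKI67-low sum. H4C16 (1.33 ± 0.39) and H4C9 (0.72 ± 0.27) were also higher, and H2BC21 was not called. The MKI67-low sums of H4C16 held 6, 7 and 8 UMIs. H4C9 and H2AC21 were more abundant in mouse barcodes, and any part of mouse RNA in their calls was not tested. H2BC17 also passed, but its MKI67-low sums were at or near 0 and no fold is given.

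**Figure D2:**
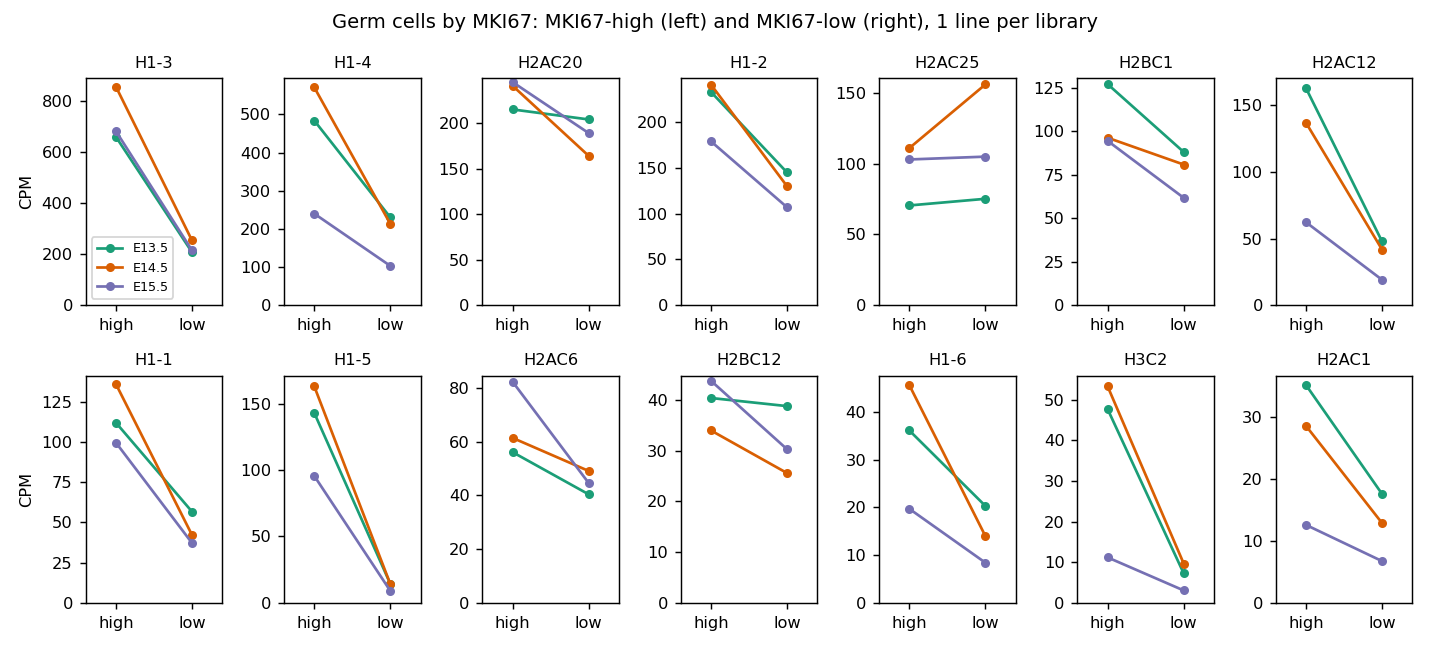
CPM of the 14 genes that reached 20 CPM in a library, in MKI67-high germ cells (left point) and MKI67-low germ cells (right point), with 1 line per library and each axis starting at 0. Lines fall steeply to the right for H1-5 and H3C2, and H2AC25, at 70.5 to 111 CPM in MKI67-high cells and 75.2 to 156 CPM in MKI67-low cells, did not pass the test.

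The cells also differed in other ways. MKI67-high cells had medians of 65350, 49584.5 and 57207 UMIs, against 49240, 37059 and 43705.5 UMIs in MKI67-low cells, and the S phase gene list summed to 3597.6, 3386.1 and 3430.9 CPM, against 2102.4, 1789.3 and 2036.7 CPM. With every cell thinned to 10000 UMIs, 13 of the 16 genes then tested were higher, all of them among the 17. Without the library as a block, 11 of 19 were higher, all among the 17. The smallest sums held 161 cells, and 143 germ cells lay within 20% of the 100 CPM limit. The libraries, which serve as the repeats here, differ in mouse stage, so their spread includes any effect of stage.

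Levels of H1-5 were at most 23.8 CPM in every bin up to 100 CPM of MKI67. In cells without MKI67 UMIs, H1-5 had 15.2, 14.1 and 8.90 CPM, and in cells with 100 to 200 CPM of MKI67 it had 19.9, 37.5 and 32.6 CPM. In cells above 400 CPM it had 227, 234 and 133 CPM. H1-3 had 192, 221 and 222 CPM in cells without MKI67 UMIs, 405, 318 and 358 CPM at 100 to 200 CPM of MKI67, and 832, 1114.6 and 860 CPM above 400 CPM. These bins were drawn after the data had been seen and are a description.

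**Figure D3:**
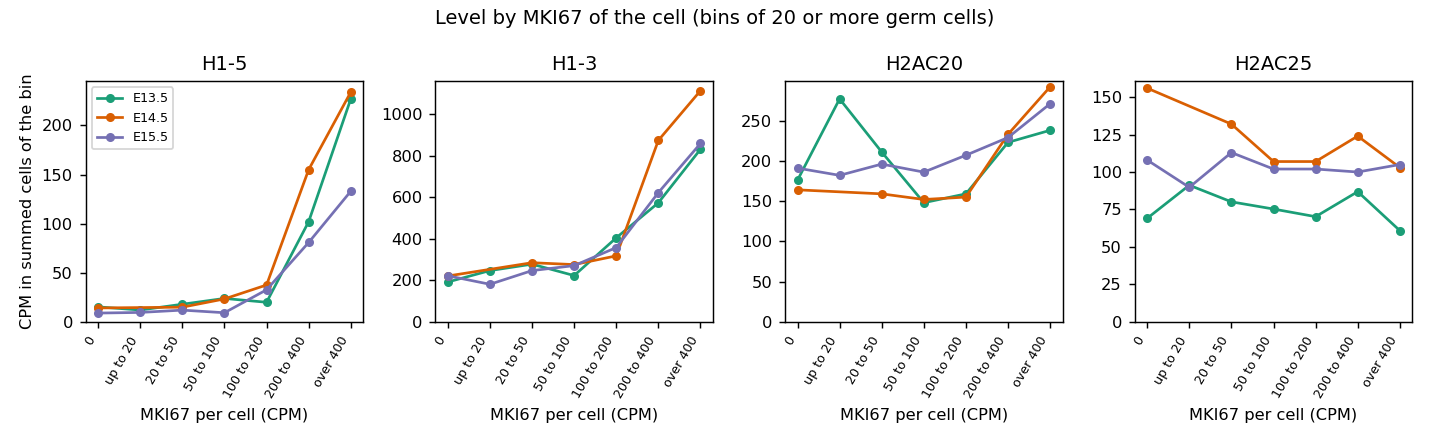
CPM of H1-5, H1-3, H2AC20 and H2AC25 in germ cells summed by their own MKI67 level (horizontal axis, CPM per cell, low to high), 1 line per library; the E14.5 bin up to 20 CPM held 10 cells and is not drawn. H1-5 and H1-3 are highest above 400 CPM of MKI67 in all 3 libraries, and H2AC25 shows no such climb.

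Other gene lists moved with MKI67 to different extents. Of the replication-independent histone genes, 7 of 14 tested were higher and 2 lower, with a median log2 difference of 0.24. CENPA, the centromere-specific H3 variant, had 103, 91.1 and 90.1 CPM in MKI67-high cells and 15.2, 13.3 and 13.9 CPM in MKI67-low cells (log2 difference 2.78 ± 0.07). H3F3B, one of the genes for the replacement histone H3.3, differed by 0.25 ± 0.07, and H2AZ1, an H2A variant gene, by 0.61 ± 0.06. H1-7, a linker histone of spermatids, was at most 1.11 CPM in germ cells and fell by 1.58 on the log2 scale. Of the genes for histone mRNA 3′ end processing and regulation, 21 of 35 tested were higher and 2 lower (median 0.25). E2F1, a transcription factor of S phase entry, rose by 1.26 ± 0.08 and CSTF2T, a subunit of a polyadenylation factor, fell by 1.15 ± 0.13. SLIRP and PABPN1, RNA-binding proteins and the most abundant of that list, differed by 0.19 ± 0.06 and 0.00 ± 0.05. SLIRP is known for binding mitochondrial RNA and not as a histone mRNA factor. The counts given for that list, here and below, include it. Of the histone chaperones, 18 of 26 tested were higher and 1 lower (median 0.40). HJURP, the chaperone of CENPA, rose by 2.08 ± 0.07 and ANP32E, a chaperone of H2A.Z, by 1.11 ± 0.06, while the abundant SET differed by 0.36 ± 0.06 and NPM1 by -0.03 ± 0.06.

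The histone cluster RNA was concentrated in few cells. The 10% of germ cells with the highest summed level held 39.6%, 41.3% and 34.9% of it, against 18.2%, 19.6% and 17.9% for the replication-independent histone genes ranked the same way. For H1-5 the top 10% of cells held 75.6%, 74.6% and 76.3%, and 96.3%, 98.1% and 95.5% of those cells were MKI67-high. Per cell, the median summed level was 1213.2, 1380.1 and 1264.9 CPM in MKI67-high cells, against 984, 1015 and 870 CPM in MKI67-low cells. The 95th percentile was 8593.5, 9577.1 and 6606.6 CPM in MKI67-high cells and 2907.4, 2954.4 and 2040.0 CPM in MKI67-low cells. The gap between states was therefore wider among the highest cells than at the median. Cells above 100000 UMIs were not removed, no doublet caller was run, and the part of doublets in these tails was not tested.

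Among MKI67-high cells, those with more S phase gene RNA had more histone cluster RNA. The MKI67-high cells of each library were split at the median of their summed S phase list (24 genes such as PCNA and MCM2), a division made after the data had been seen. The 20 genes summed to 3377.5, 3932.8 and 2782.7 CPM in the upper group, against 1509.0, 1699.0 and 1248.2 CPM in the lower group. Of 19 genes tested, 15 were higher in the upper group, where 9.73% of 14847 genes tested were higher by edgeR's quasi-likelihood test with Benjamini-Hochberg adjustment. The 2 that were lower were H2AC25 and H2BC12, where 11.8% of all genes were lower, and the median log2 difference was 1.08 over the members and 0.00 over all genes. Fitted with no library block, 7 were higher and 0 lower, and DESeq2 called 11 higher and 0 lower. The 15 include H2BC17, with 17, 20 and 6 UMIs in the upper group and 3, 6 and 1 UMIs in the lower group. It passed the filter on low counts only through the upper group, so its call adds no support.

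H2AC1 had 58.0, 49.4 and 21.3 CPM in the upper group and 12.7, 8.64 and 4.67 CPM in the lower group, a log2 difference of 2.24 ± 0.11 (adjusted p = 6.01e-09). H1-5 differed by 1.97 ± 0.07, at 226, 262 and 162 CPM in the upper group and 60.8, 69.0 and 34.9 CPM in the lower group. H1-3 had 1007.2, 1279.3 and 1089.0 CPM in the upper group and 313, 447 and 306 CPM in the lower group (1.64 ± 0.06). For these genes the groups did not overlap.

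H1-6 differed by 1.77 ± 0.11, H1-1 by 1.71 ± 0.10, H2AC12 by 1.60 ± 0.09, H1-4 by 1.30 ± 0.06, H3C2 by 1.02 ± 0.09, H2BC1 by 0.84 ± 0.08, H1-2 by 0.74 ± 0.06 and H2AC20 by 0.33 ± 0.07. H2AC6 did not pass (0.04 ± 0.09). H2BC12 was lower in the upper group, with 35.3, 32.2 and 37.3 CPM against 45.3, 35.7 and 49.8 CPM in the lower group (-0.37 ± 0.08, adjusted p = 0.0045). H2AC25 was also lower (-0.26 ± 0.08, adjusted p = 0.0265, the direction of 2 of 3 libraries), and without E15.5 both calls were lost and the number lower was 0. The G2 and M phase list stood at 3574.3, 3074.1 and 3309.0 CPM in the upper group, against 6935.7, 6103.0 and 6217.8 CPM in the lower group. The replication-independent histone genes summed to 3227.0, 3548.8 and 3620.1 CPM in the upper group and 3520.3, 3731.3 and 3840.5 CPM in the lower group.

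Genes also differed by the S phase list among cells under 100 CPM of MKI67. These were split at the top 25% and not at the median, so the counts are not set against those of MKI67-high cells. In the 25% of such cells with the highest S phase list in each library (71, 77 and 166 cells) the 20 genes summed to 1514.8, 1589.4 and 1000.6 CPM, against 1073.9, 1129.2 and 991 CPM in the other cells (212, 229 and 495). Of 17 genes tested 7 were higher, where 13.8% of 15566 genes were higher, and 3 were lower, where 13.4% were lower. The higher genes were led by H2AC1 (log2 difference 1.39 ± 0.27), H1-1 (1.18 ± 0.20), H1-5 (0.78 ± 0.13) and H2BC1 (0.70 ± 0.12), followed by H1-6 (0.50 ± 0.17), H2AC12 (0.48 ± 0.16) and H1-4 (0.41 ± 0.08), each higher in 3 of 3 libraries except H2AC12 with 2. H2AC25 (-0.82 ± 0.10), H2BC21 (-0.75 ± 0.25) and H2AC6 (-0.72 ± 0.11) were lower, in 3 of 3 libraries except H2BC21 with 2. H1-1 had 105, 113 and 46.2 CPM in S-list-high cells and 28.5, 30.0 and 37.1 CPM in the others. Limited to cells in none of the POU5F1, STRA8 and SYCE3 states described next, 1 gene (H1-5) was higher and 1 (H2AC25) lower. The fit with no library block gave 3 higher and 1 lower, and DESeq2 called 3 higher.

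Germ cells were next divided by genes that mark stages of oogonial development. POU5F1-high cells were the top 20% by POU5F1, a pluripotency factor kept in early germ cells (64, 129 and 241 cells). STRA8-positive cells had at least 2 UMIs and 50 CPM of STRA8, a gatekeeper of meiotic entry (139, 89 and 274 cells), and SYCE3-high cells were the top 5% by SYCE3, a synaptonemal complex protein (27, 27 and 56 cells). The states exclude one another, with SYCE3 taking precedence over STRA8 and STRA8 over POU5F1. Remaining cells were in none of the 3 states (307, 291 and 542 cells). The summed level of the 20 genes averaged 1477.8 ± 278 CPM in POU5F1-high cells, 1970.4 ± 254 CPM in cells of none of the states, 1384.0 ± 136 CPM in STRA8-positive cells and 2562.2 ± 1004.8 CPM in SYCE3-high cells (mean ± SD, n = 3 libraries).

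STRA8-positive cells differed from POU5F1-high cells in both directions, and the count of lower genes depended on the scaling and on the cycling cells. The call was higher for 2 and lower for 11 of the 18 genes that could be tested. Of all 16010 genes 66.7% passed, 33.9% higher and 32.8% lower, by edgeR's quasi-likelihood test with Benjamini-Hochberg adjustment. The scaling factors of edgeR (TMM) moved this comparison by 0.54 on the log2 scale, and most genes had lower plain CPM in POU5F1-high cells (median of all genes 0.58 before and 0.05 after scaling), and the log2 differences are relative to that shift. With plain CPM 4 genes were higher and 5 lower, the 5 being H1-3, H1-4, H1-5, H2AC21 and H3C2. H1-2, which was called lower after scaling (-0.28 ± 0.11), had higher plain CPM in STRA8-positive cells in 3 of 3 libraries. H2AC25 and H2BC1, also called lower, had lower plain CPM in STRA8-positive cells in only 1 of 3 libraries each. Limited to cells under 100 CPM of MKI67, 6 of 16 genes were higher and 1 (H1-5) was lower. With no library block 4 were lower, and without E15.5 the number higher was 1. The share of all genes called was not taken under plain CPM or these other settings. Their counts are therefore not read as results about the members. The STRA8-positive sums of H2AC21 held 5, 1 and 4 UMIs, and those of H4C16 held 16, 4 and 8 UMIs. Both genes are among the 11 called lower. They passed the filter on low counts through other states, so their calls add no support.

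H1-5 had 37.4, 23.9 and 19.5 CPM in STRA8-positive cells, against 96.4, 130 and 92.3 CPM in POU5F1-high cells (log2 difference -2.53 ± 0.19, adjusted p = 1.53e-09). It was lower under every alternative run for this comparison. H3C2 had 3.38 to 17.6 CPM in STRA8-positive cells and 8.36 to 31.1 CPM in POU5F1-high cells (-1.51 ± 0.20), and the groups overlapped through E15.5. H1-3 had 375, 396 and 317 CPM against 377, 559 and 458 CPM (-0.89 ± 0.15), and H1-4 had 292, 242 and 123 CPM against 320, 366 and 154 CPM (-0.87 ± 0.13).

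H2AC20 and H2BC12 were higher in STRA8-positive cells under both scalings. H2AC20 had 178, 196 and 250 CPM in STRA8-positive cells, against 89.8, 118 and 103 CPM in POU5F1-high cells (log2 difference 0.46 ± 0.14, adjusted p = 0.0056). H2BC12 had 44.1, 45.6 and 52.3 CPM in STRA8-positive cells and 20.5, 17.8 and 21.9 CPM in POU5F1-high cells (0.70 ± 0.12, adjusted p = 5.61e-05). Neither gene's groups overlapped. MKI67-high cells made up 40.3%, 29.2% and 35.4% of STRA8-positive cells and 26.6%, 29.5% and 33.6% of POU5F1-high cells, and the mouse markers summed to 270, 323 and 287 CPM in STRA8-positive cells, against 38.2, 69.4 and 49.6 CPM in POU5F1-high cells. Without cells above 500 CPM of these markers, 2 genes were again higher and 11 lower. KRT19, which made up most of the marker sum in germ cells, is part of these values, so they do not measure mouse RNA alone. Of the genes for histone mRNA 3′ end processing and regulation, 9 of 35 tested were higher and 19 lower in STRA8-positive cells, and of the replication-independent histone genes 3 of 13 were higher and 6 lower.

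SYCE3-high cells had more of the testis histones H2AC1, H2BC1 and H1-6 and of most other linker histones than STRA8-positive cells. Of 18 genes tested 10 were higher and 4 lower, where 25.9% of 16010 genes were higher and 27.4% lower by the same edgeR test, and the median log2 difference was 0.75 over the members and -0.04 over all genes. Limited to cells under 100 CPM of MKI67, 9 of the 10 were again higher, 3 of the 4 were again lower (not H2BC12), and H1-3 was then called lower (-0.77). Fitting with no library block left 8 higher and 1 lower. Of the 3′ end processing and regulation genes 16 of 35 tested were higher and 9 lower, and of the replication-independent histone genes 4 of 13 were higher and 2 lower.

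H2AC1 had 170, 138 and 20 CPM in SYCE3-high cells, against 17.0, 3.93 and 5.21 CPM in STRA8-positive cells (log2 difference 3.20 ± 0.36, adjusted p = 6.57e-07). The groups did not overlap, but the E15.5 value in SYCE3-high cells lay far under the other two. H2BC1, its neighbour in the gene table, had 370, 281 and 144 CPM in SYCE3-high cells and 73.5, 55.6 and 58.3 CPM in STRA8-positive cells (1.89 ± 0.17, adjusted p = 3.66e-08). H1-6 had 44.6, 67.2 and 21.7 CPM in SYCE3-high cells and 22.2, 11.5 and 9.91 CPM in STRA8-positive cells (1.35 ± 0.27), with overlapping groups.

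H1-1 had 339, 330 and 103 CPM in SYCE3-high cells, against 51.7, 44.1 and 38.9 CPM in STRA8-positive cells (log2 difference 2.27 ± 0.24, adjusted p = 2.93e-07). H1-4 had 523, 886 and 282 CPM against 292, 242 and 123 CPM (1.22 ± 0.13), and its E15.5 value in SYCE3-high cells lay below the E13.5 value in STRA8-positive cells. H2AC12 (1.27 ± 0.31), H3C2 (1.15 ± 0.26), H1-5 (0.97 ± 0.25), H2AC20 (0.45 ± 0.14) and H1-2 (0.39 ± 0.12) were also higher. H1-3, the most abundant member, did not pass with all cells (-0.07 ± 0.16, adjusted p = 0.722).

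H2BC21 (-1.26 ± 0.31), H2AC6 (-1.01 ± 0.24), H2AC25 (-0.54 ± 0.20) and H2BC12 (-0.38 ± 0.15) were lower in SYCE3-high cells, the last 3 of them in 2 of 3 libraries. H2AC6 had 48.9, 22.1 and 27.7 CPM there, against 46.7, 57.1 and 70.4 CPM in STRA8-positive cells. Without E15.5 the number lower was 1, and with plain CPM it was 2. H2AC25, which was more abundant in mouse barcodes, had 81.5, 68.1 and 69.3 CPM in SYCE3-high cells, against 69.6, 117 and 111 CPM in STRA8-positive cells. Any part of mouse RNA in its call was not tested. The mouse markers, KRT19 among them, summed to 159, 113 and 183 CPM in SYCE3-high cells, against 270, 323 and 287 CPM in STRA8-positive cells. Without cells above 500 CPM of these markers, 10 genes were higher and 3 lower. SYCE3-high cells had an S phase list of 3912.3, 3650.7 and 3639.0 CPM, against 3088.1, 2649.6 and 2822.7 CPM in STRA8-positive cells, and their MKI67-high share was 25.9%, 37.0% and 25%, against 40.3%, 29.2% and 35.4%.

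**Figure D4:**
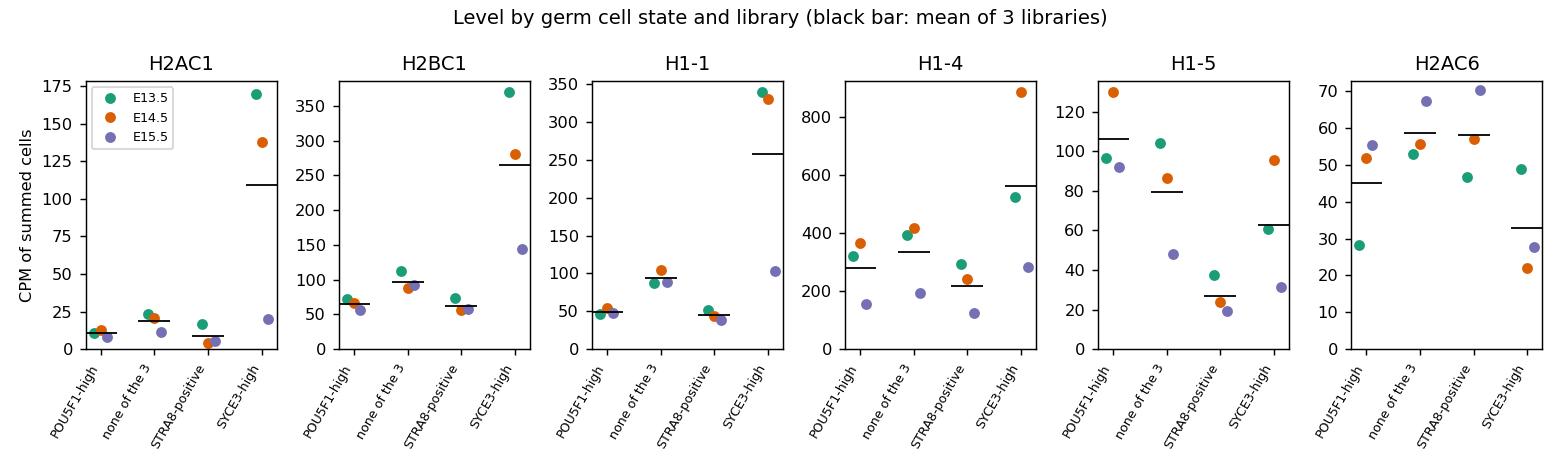
CPM of 6 genes in germ cells summed by state and library (points), in the order POU5F1-high, none of the 3 states, STRA8-positive and SYCE3-high, with a black bar at the mean of the 3 libraries and each axis starting at 0. H2AC1, H2BC1 and H1-1 are highest in SYCE3-high cells, where E15.5 is the lowest library, H1-5 is lowest in STRA8-positive cells, and H2AC6 is lowest on average in SYCE3-high cells.

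The difference by MKI67 was wider in POU5F1-high cells than in cells of none of the 3 states for several genes. This was tested after the data had been seen, as the interaction of both divisions in edgeR, and 11 of 18 genes had a larger difference in POU5F1-high cells, where 3.17% of 14128 genes did (5.42% differed in either direction). The number with a smaller one was 0, also at an unadjusted p under 0.05, where 2.25% of all genes had one. DESeq2 was not run on it. H2AC20 in POU5F1-high cells had 200, 231 and 186 CPM when MKI67-high and 37.8, 51.7 and 45.6 CPM when MKI67-low. In cells of none of the states it had 229, 247 and 270 CPM when MKI67-high and 259, 239 and 228 CPM when MKI67-low. The MKI67 differences were 2.07 in POU5F1-high cells and 0.09 in the others on the log2 scale, apart by 1.99 ± 0.15 (adjusted p = 1.52e-08).

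H1-1 in POU5F1-high cells had 121, 131 and 100 CPM when MKI67-high and 10.5, 13.3 and 11.2 CPM when MKI67-low, against 114, 138 and 116 CPM and 38.6, 57.6 and 50.7 CPM in cells of none of the states. For both genes the MKI67-low, POU5F1-high cells stood lowest in every library. Fitted with no library block, 3 genes had a larger difference, and without E15.5 there were 7. The MKI67-high, POU5F1-high sums rest on 17, 38 and 81 cells. Their S phase list was 4376.8, 3757.3 and 3438.0 CPM, against 3401.6, 3243.4 and 3462.5 CPM in MKI67-high cells of none of the states, and their G2 and M phase list 3792.2, 3230.4 and 4469.1 CPM, against 5728.7, 5077.5 and 5277.9 CPM. The part of these in the interaction was not tested.

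Between libraries, with 1 library per mouse stage and no test possible, the summed level of the 20 genes had log2 ratios of CPM + 1 of 0.11 (E14.5 over E13.5), -0.35 (E15.5 over E13.5) and -0.46 (E15.5 over E14.5). A gene was noted when it differed by at least 2-fold with at least 20 CPM in 1 of the libraries. Of the 14 genes at 20 CPM, 0 passed between E14.5 and E13.5, where 0.256% of 7426 genes were higher and 0.242% lower. In E15.5 over E13.5, 4 were lower (H3C2, H2AC12, H2AC1 and H1-4), where 0.185% of 7553 genes were lower. In E15.5 over E14.5, 5 were lower (the same 4 and H1-6), where 0.189% of 7405 genes were lower. The number higher was 0 in both, where 0.053% and 0.135% of all genes were higher. Stage, library and any other difference between the 3 preparations cannot be told apart.

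The ratios of E15.5 over E13.5 were examined within states. H3C2 was lower in E15.5 than in E13.5 in MKI67-high cells (log2 ratio -2.00), MKI67-low cells (-1.02), POU5F1-high cells (-1.58), STRA8-positive cells (-2.09) and SYCE3-high cells (-3.42). H2AC12 was lower by the same measure in MKI67-high (-1.38), MKI67-low (-1.28), POU5F1-high (-0.72), STRA8-positive (-1.76) and SYCE3-high cells (-2.47). H2AC1 in SYCE3-high cells had 20 CPM in E15.5, against 170 CPM in E13.5 (-3.03), and in POU5F1-high cells 8.21 CPM in E15.5, against 10.7 CPM in E13.5 (-0.35). For these 3 genes the direction of E15.5 over E13.5 was shared by the states, and the size was not. In E15.5 over E14.5, H2AC1 went the other way in STRA8-positive cells, at 5.21 CPM in E15.5, against 3.93 CPM in E14.5 (0.33).

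H1-4 differed about equally in every state, from -0.89 in SYCE3-high cells to -1.24 in STRA8-positive cells, and by -1.09 in mouse barcodes. What lies behind these ratios was not tested. H3C2 and H2AC12 had mouse barcode ratios of -0.46 and -0.30, from levels of at most 1.69 and 5.98 CPM. Of the 14 genes at 20 CPM, 3 had a ratio of E15.5 over E13.5 above 0, namely H2AC25 (log2 ratio 0.51), H2AC6 (0.39) and H2AC20 (0.07). Among the low members H2BC21 had 8.94 CPM in E15.5, against 4.78 CPM in E13.5 (0.78). The replication-independent histone genes had a summed ratio of 0.07. The share of MKI67-high cells was 47.3%, 42.9% and 40.6%, and of POU5F1-high cells 11.9%, 24.1% and 21.7%. In MKI67-low cells alone the summed ratio of E15.5 over E13.5 was -0.34, and with equal weight to each state it was -0.50. By state it was -0.14 in POU5F1-high cells, -0.29 in cells of none of the states, -0.28 in STRA8-positive cells and -1.06 in SYCE3-high cells.

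**Figure D5:**
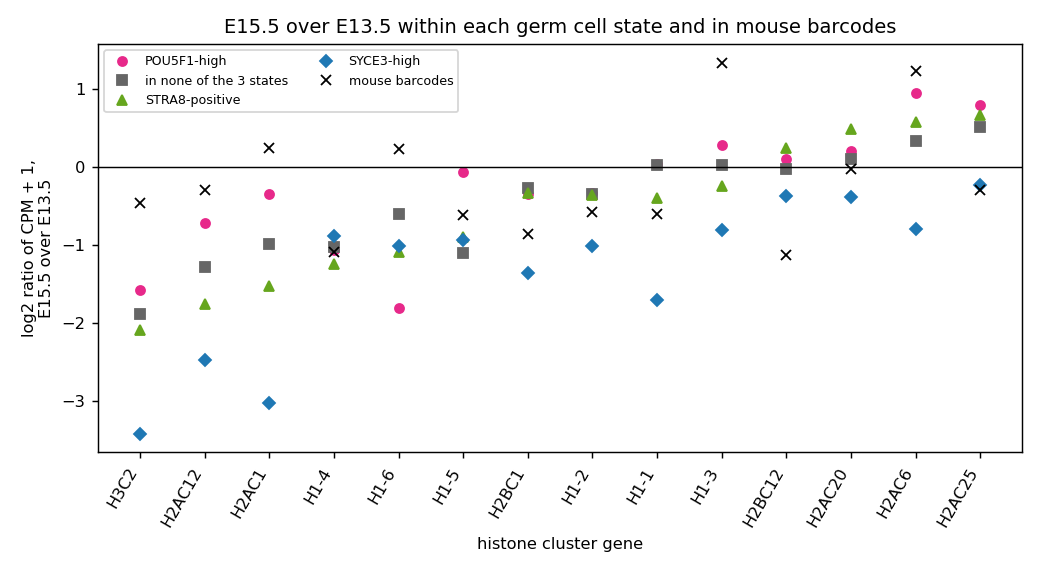
Log2 ratio of CPM + 1 of E15.5 over E13.5 for the 14 genes, within each germ cell state and in mouse barcodes (crosses), ordered by the ratio in all germ cells. H3C2 and H2AC12 lie below 0 in every germ cell state, H1-4 lies near -1 in germ cells and mouse barcodes, and SYCE3-high cells (27 cells in E13.5 and 56 in E15.5) have the lowest ratios of H3C2, H2AC12, H2AC1 and H1-1.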

How the data were processed

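UMI counts per gene and barcode were deposited by the authors as filtered matrices produced by Cell Ranger 6.0.1 as the file headers state, from 10x Genomics 3′ v3.1 libraries, per the labels' protocols. Neither the genome build nor the annotation or strand setting is given in the sources used here. No coordinates or sequences are printed; the RefSeq gene table served only for names, neighbours and overlaps. Germ cells held 31364271, 24342943 and 57505722 UMIs (E13.5, E14.5, E15.5), so 3 counts stand for 0.0957, 0.123 and 0.0522 CPM.

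UMIs were summed per library and state and tested with edgeR 4.0.16 (limma 3.58.1, R 4.3.3): filterByExpr, TMM, quasi-likelihood test, library as block, and Benjamini-Hochberg adjustment over all genes at 0.05. Standard errors (SE, after ±) of log2 differences were derived from that test, as the absolute log2 difference divided by the square root of its F statistic. The genes that define a state (MKI67, POU5F1, STRA8, SYCE3 or the S phase list) are not read as results there. DESeq2 1.42.0, other scalings, filters, limits, thinning and each library left out were alternatives. Shares of all genes called were taken for the main fits only, so counts under the alternatives show only whether the calls of members held. The code was tested on simulated counts. Python 3.11.15 with numpy 2.4.6, scipy 1.17.1, pandas 2.3.3 and matplotlib 3.10.9 made sums, exact Poisson 95% intervals and figures.

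Members at 20 CPM in a library are described singly, those of 2 to 20 CPM by range, those under 2 CPM by name. In the other lists the 2 called genes of largest change by MKI67 and the 2 most abundant are named. The members and lists were chosen with earlier results of these data known, and lists were edited after the files were read to keep 1 name for each gene. No statement says that the libraries were repeated from separate cultures.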

Additional observations from a re-analysis of the deposited data

Results flagged for a closer look

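The difference between MKI67-high and MKI67-low cells was larger in POU5F1-high cells than in cells of none of the 3 states for 11 genes, by the interaction test of edgeR chosen after the data had been seen. On the log2 scale the gap was 1.99 for H2AC20, 1.99 for H1-6, 1.85 for H1-1, 1.45 for H2AC12, 1.38 for H2AC1, 1.37 for H3C2, 1.15 for H1-5, 1.07 for H1-2, 1.06 for H1-4, 1.05 for H1-3 and 0.83 for H2AC6. H1-5 differed by 4.42 between MKI67-high and MKI67-low cells among POU5F1-high cells and by 3.27 among the others. H2AC25, H2BC1 and H2BC12 showed gaps of 0.30, 0.23 and 0.07 and did not pass.

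Mouse barcodes, which the comparisons of germ cells do not use, held more of 3 genes than germ cells in all 3 libraries, with Poisson intervals apart in each. H2AC25 had at least 437 CPM in mouse barcodes, against at most 125 CPM in germ cells. H4C9 had at least 25.1 CPM in mouse barcodes and at most 2.74 CPM in germ cells, and H2AC21 at least 7.93 CPM and at most 2.68 CPM. The requirement of intervals apart in all libraries was set after the values had been seen.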

How the results depend on the processing

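Most results kept their direction and their side of the threshold, and the exceptions follow, with causes that were not tested unless the setting itself drops cells or genes. Without the library as a block (no replicate block), 11 genes were higher by MKI67, 4 were lower in STRA8-positive than POU5F1-high cells, 1 was lower in SYCE3-high than STRA8-positive cells, 3 were higher and 1 lower by the S phase list under 100 CPM of MKI67, 7 higher and 0 lower by that list in MKI67-high cells, and 3 had a larger MKI67 difference in POU5F1-high cells. DESeq2 gave 2 lower in SYCE3-high cells, 3 higher by the S phase list under 100 CPM of MKI67 and 0 lower by it in MKI67-high cells. Leaving out 1 library at a time gave 0 to 1 genes lower by MKI67, 1 to 2 higher in STRA8-positive cells, 1 to 4 lower in SYCE3-high cells, 0 to 2 lower by the S phase list in MKI67-high cells and 7 to 10 with a larger MKI67 difference in POU5F1-high cells. In those fits H2AC25 by MKI67 ranged from -0.31 to 0.02, H1-3 in SYCE3-high cells from -0.35 to 0.23, H2BC12 by the S phase list under 100 CPM of MKI67 from -0.19 to 0.04 and H2AC6 by that list in MKI67-high cells from -0.07 to 0.17. Thinning to 10000 UMIs left 6 lower in STRA8-positive cells, 1 lower in SYCE3-high cells and 3 higher by the S phase list under 100 CPM of MKI67. Without cells over 100000 UMIs 1 gene was lower by MKI67. A POU5F1 limit at the top 10%, or STRA8 at 1 UMI, gave 7 lower in STRA8-positive cells, and with STRA8 at 1 UMI H1-5 in SYCE3-high cells was -0.08. Limited to cells under 100 CPM of MKI67, STRA8-positive cells had 6 higher and 1 lower, with H2AC12 at 0.32, H2AC6 at 0.42, H1-2 at 0.46, H1-1 at 0.73 and H2AC1 at 0.21. Limited to cells in none of the 3 states, the S phase list gave 1 higher and 1 lower, with H2AC20 at -0.23, H1-3 at -0.07, H1-2 at -0.07 and H2BC1 at -0.03. Plain CPM, added after the data had been seen, gave 4 higher and 5 lower in STRA8-positive cells, with H2AC25 at 0.13, H2AC6 at 0.34 and H1-2 at 0.26, and 2 lower in SYCE3-high cells, with H1-3 at 0.01, and put H2BC12 at 0.04 by the S phase list under 100 CPM of MKI67. H1-3 in SYCE3-high cells was 0.02 without the block. Summed over members, E14.5 over E13.5 had a log2 ratio of 0.14 with equal weight to states, 0.02 in MKI67-low cells, 0.22 with TMM or DESeq2 factors and 0.05 without H1-3. For E15.5 over E13.5 it was -0.50 with equal weight, -0.47 without H1-3 and -0.38 without cells over 500 CPM of mouse markers, a setting also added later. For E15.5 over E14.5 it was -0.63 with equal weight, -0.35 in MKI67-low cells, -0.57 with TMM and -0.58 with DESeq2 factors, -0.52 without H1-3 and -0.50 without those cells. Depth limits the members under 2 CPM, and the 27 SYCE3-high cells each of E13.5 and E14.5 limit that state.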
